A study of Mus musculus with 18 samples.

Results

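The genes described here are 10 members of the transforming growth factor beta (TGF-β) family and pathway: the ligand gene Tgfb1, the receptor genes Tgfbr1 and Tgfbr2, the signal transducers Smad2 and Smad3, the inhibitors Smad7, Ski and Skil, the feedback gene Pmepa1 and the integrin gene Itgae. They were picked by name and matched by Entrez identifier, and are 10 of the 27179 genes listed in each library. All 10 passed the filter on low counts. The data are bulk 3′ RNA-seq, which reads the polyadenylated end of each transcript, from mouse CD4 T cells. Naive cells were activated for 3.5 days with antibodies against CD3 and CD28 bound to the plate, sorted by flow cytometry, and processed from 50 ng of total RNA. All 18 libraries come from Maf fl/fl mice, so both Maf alleles are floxed in every group. The genotype label is CD4Cre- for 9 libraries and CD4Cre+ for 9. In CD4Cre, Cd4 regulatory sequences drive Cre in T cells. Within each label 3 libraries each had the treatment Tfh_A, Tfh_1 or Tfh_5, written TfhA, Tfh1 and Tfh5 here. The labels do not say what the treatments contained or how old the mice were, and no treatment can be called a condition with or without added TGF-β. Cre-negative libraries have the numbers 2, 4 and 5 and Cre-positive ones 1, 3 and 6, and nothing says that a number is an animal. The spread between samples that the p-values measure may therefore be technical.

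Active TGF-β brings together the type II receptor TGFBR2 and the type I receptor TGFBR1, a kinase that phosphorylates SMAD2 and SMAD3, and these enter the nucleus with SMAD4. Among the genes they switch on are inhibitors of the pathway itself, which makes the levels of Smad7, Skil and Pmepa1 a readout of feedback in many cell types. In CD4 T cells TGF-β is known for its part in regulatory T cells and, with other cytokines, in Th17 cells, and it raises Itgae, which encodes the integrin chain CD103. The title of the series names c-Maf, the product of Maf, as acting between TGF-β and the follicular helper (Tfh) or Th17 fate.

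Maf itself went against the genotype labels. CD4Cre removes floxed sequence in T cells, yet Maf had 17.33 counts over the 9 libraries with the Cre-negative label and 12405.33 over the 9 with the Cre-positive label. The labels do not say whether the 3′ reads lie in the deleted part. Levels were 0 to 2.03 CPM (counts scaled to the library's effective size) under the Cre-negative label. Under the Cre-positive label they were 5.02 to 22.8 CPM in TfhA, 196 to 260 CPM in Tfh1 and 319 to 397 CPM in Tfh5. The libraries with almost no Maf RNA were thus those labelled Cre-negative. Every direction between genotypes below is one between libraries labelled Cre-positive and libraries labelled Cre-negative. It does not say in which cells the Maf gene was deleted, which was not tested.

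The family's clearest treatment difference was in Pmepa1, whose protein sits in membranes, binds SMAD2 and SMAD3 and keeps them from the receptor. Its tail holds PY motifs (proline, proline, any residue, tyrosine), the docking sites of NEDD4-type ubiquitin ligases, and SMAD2, SMAD3 and SMAD7 are known to hold one in the linker. The coding sequences of the 10 genes (GENCODE M21, build mm10, the longest of each gene) were searched in frame for CCNCCNNNNTAC and CCNCCNNNNTAT, on the coding strand only. Pmepa1 held 2 matches in 822 coding bases, Smad2, Smad3 and Smad7 held 1 each, and the other 6 genes held 0. Of 21713 mouse genes with a coding sequence, 1303 (6.001%) held at least 1 match and 155 (0.7139%) held 2 or more. The 2 Pmepa1 stretches and, to compare them with a SMAD, the Smad3 stretch are shown 5′ to 3′ with the 12 motif bases in capitals.
Pmepa1 PY site 1: ggggaggagCCCCCACCCTACcagggcccc
Pmepa1 PY site 2: gaggggccgCCCCCCACCTACagcgaggtc
Smad3 PY site 1: gaaaccccaCCTCCTGGCTACctgagtgaa
Both Pmepa1 stretches lie on the minus strand in exon 4 of 4 of the gene's coding transcript, at chr2:173228179-173228208 and chr2:173227966-173227995 (mm10). The Smad3 stretch is on the minus strand across the junction of exons 3 and 4 of 9, within chr9:63666194-63667475. A match is a stretch of letters and was not tested for binding.

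Pmepa1 rose from TfhA to Tfh5 under both genotype labels, by 3.96-fold to 5.32-fold, and under the Cre-negative label Tfh1 stood between the other 2 treatments. With the Cre-positive label, Tfh1 and TfhA overlapped. The gene lies at chr2:173224458-173276731 on the minus strand (mm10, RefSeq annotation of GRCm38.p6), and reads were counted in parts for it in 10 of 18 libraries. In TfhA its level was 83.7, 71.5 and 74.3 CPM in Cre-negative libraries 2, 4 and 5, and 39.3, 73.1 and 55.9 CPM in Cre-positive libraries 1, 3 and 6. In Tfh1 it was 108, 160 and 175 CPM in the Cre-negative and 58.9, 84.6 and 75.6 CPM in the Cre-positive libraries, in the same order. In Tfh5 it was 292, 292 and 324 CPM against 321, 313 and 264 CPM. All 6 Tfh5 libraries lay above all 12 others, and in Tfh1 every Cre-negative library lay above every Cre-positive one. Ordered by group mean, Pmepa1 went from Cre-positive TfhA (56.1 ± 16.9 CPM, SD, n = 3) through Cre-positive Tfh1 (73.1 ± 13), Cre-negative TfhA (76.5 ± 6.37) and Cre-negative Tfh1 (148 ± 35.6) to Cre-positive Tfh5 (299 ± 30.8) and Cre-negative Tfh5 (303 ± 18.8). Ranges overlapped between neighbours among the lowest 3 groups and between the highest 2.

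**Figure D1:**
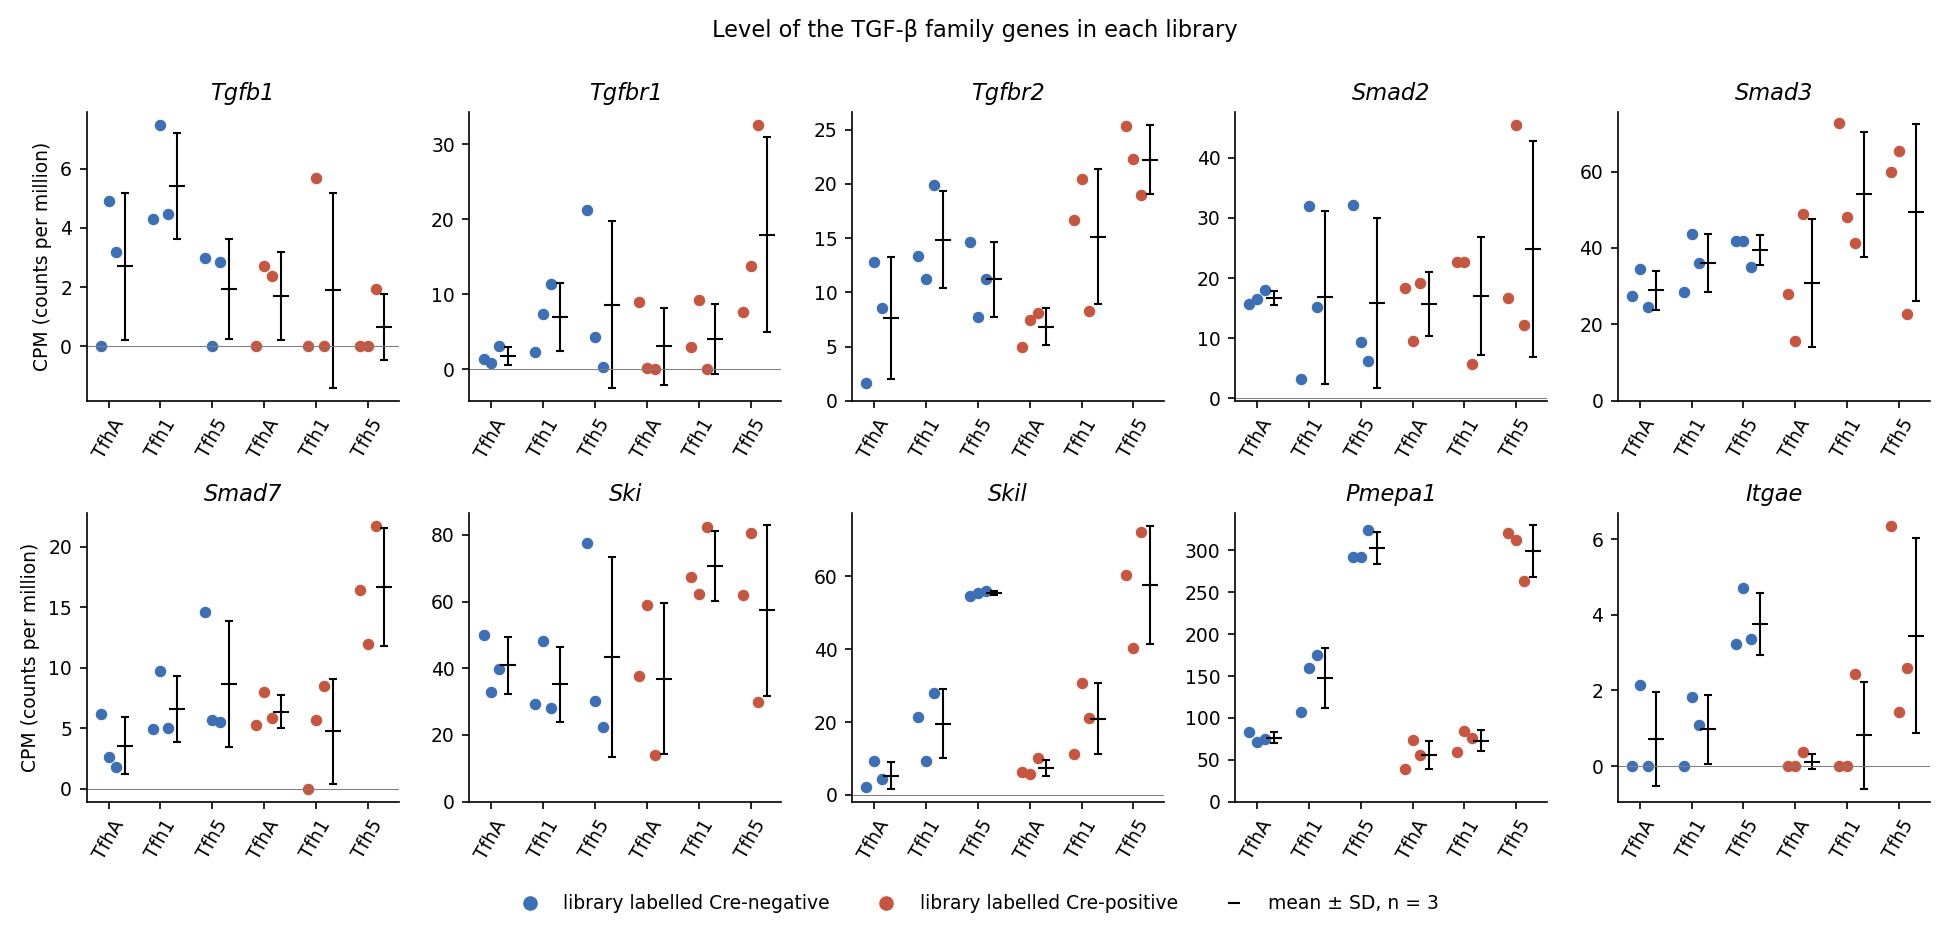
Level of each of the 10 genes in CPM (vertical axis, linear, own scale per gene) by treatment (horizontal axis), with 1 point per library, blue for the label Cre-negative and red for Cre-positive, and a bar for the mean ± SD of 3 libraries. Pmepa1 and Skil are highest in the 6 Tfh5 libraries, Pmepa1 at 264 to 324 CPM, and Tgfb1 and Itgae stay below 8 CPM.

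The differences were tested with edgeR's quasi-likelihood test over 11738 genes, with Benjamini-Hochberg adjustment and a threshold of 0.05. From TfhA to Tfh5, Pmepa1 rose by 1.98 ± 0.24 on the log2 scale (SE) under the Cre-negative label (edgeR adjusted p = 3.65e-07) and by 2.41 ± 0.24 under the Cre-positive label (adjusted p = 6.10e-09). From Tfh1 to Tfh5 it rose by 2.03 ± 0.24 under the Cre-positive label (edgeR adjusted p = 7.50e-07). Each of these 3 calls held in all 13 alternatives run, which leave out single libraries or change the scaling, filter or test. The smaller steps under the Cre-negative label were less firm. Tfh1 was above TfhA by 0.95 ± 0.23 (edgeR adjusted p = 0.0176), a call lost without TfhA library 5 (0.0857), TfhA library 4 (0.0717), Tfh1 library 5 (0.121) or Tfh1 library 4 (0.0929). Tfh5 was above Tfh1 by 1.03 ± 0.23 (edgeR adjusted p = 0.0261), a call lost without Tfh1 library 2 (0.193), 5 (0.0514) or 4 (0.0693), without Tfh5 library 5 (0.0941), and in a fit on those 6 libraries alone (0.0903). The step from TfhA to Tfh1 under the Cre-positive label was 0.38 ± 0.23 and was not called (edgeR adjusted p = 0.499). In bulk RNA, more cells that express a gene and more RNA per cell cannot be told apart, here or for any gene below.

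Skil showed the other large treatment difference. It encodes SnoN, a SMAD-binding co-repressor that TGF-β signalling first degrades and then induces again. The gene is at chr3:31095058-31122923 on the plus strand, and 12 of 18 libraries counted reads for it in parts. Its level in TfhA was 2.29, 9.29 and 4.39 CPM in Cre-negative libraries 2, 4 and 5, and 6.40, 5.74 and 10.05 CPM in Cre-positive libraries 1, 3 and 6. Tfh1 libraries had 21.3, 9.29 and 28.1 CPM against 11.2, 30.7 and 21 CPM. Tfh5 libraries had 54.8, 55.6 and 56.0 CPM against 60.4, 40.2 and 72.2 CPM. As for Pmepa1, all Tfh5 libraries were above all others. In each treatment, however, the ranges of the 2 labels overlapped.

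Skil rose from TfhA to Tfh5 by 3.37 ± 0.53 on the log2 scale under the Cre-negative label (5.32 ± 3.59 to 55.4 ± 0.636 CPM, n = 3 each, edgeR adjusted p = 4.65e-05). For the Cre-positive label the rise was 2.96 ± 0.53 (7.40 ± 2.32 to 57.6 ± 16.2 CPM, edgeR adjusted p = 0.000216). Both calls held in all 13 alternatives. From TfhA to Tfh1, Skil was called under the Cre-negative label, at 1.87 ± 0.51 (edgeR adjusted p = 0.0405), although the groups overlapped at 9.29 CPM, the level of library 4 in both. This call was lost with limma-voom (0.281), in a fit on those 6 libraries alone (0.109), and without TfhA library 2 (0.226), TfhA library 5 (0.211), Tfh1 library 2 (0.115) or Tfh1 library 5 (0.215). The same step in Cre-positive libraries was 1.5 ± 0.50 with ranges that did not overlap, and was not called (edgeR adjusted p = 0.114). The step from Tfh1 to Tfh5 was 1.5 ± 0.50 under the Cre-negative label (adjusted p = 0.193) and 1.46 ± 0.50 under the Cre-positive label (adjusted p = 0.160). Neither was called by edgeR, and limma-voom called the second (adjusted p = 0.0381). Ordered by group mean, the 2 TfhA groups were lowest, the 2 Tfh1 groups next (19.6 ± 9.53 and 21 ± 9.74 CPM) and the 2 Tfh5 groups highest, and between treatments only TfhA and Tfh1 ranges overlapped, where Cre-negative Tfh1 library 4 lay just below Cre-negative TfhA library 4 and Cre-positive TfhA library 6.

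The ligand gene Tgfb1 was barely detected. The gene (chr7:25687002-25705077, plus strand) had 326 counts over all 18 libraries and 0 in 7 of them, and a library at 0 allows up to 3 counts (counting error only, as PCR copies are not independent molecules). Cre-negative libraries 2, 4 and 5 were at 0, 4.90 and 3.19 CPM in TfhA, 4.30, 7.46 and 4.46 CPM in Tfh1, and 2.98, 0 and 2.85 CPM in Tfh5. Cre-positive libraries 1, 3 and 6 were at 0, 2.72 and 2.39 CPM in TfhA, at 0, 5.69 and 0 CPM in Tfh1 and at 0, 0 and 1.94 CPM in Tfh5. Every group except Cre-negative Tfh1 held at least 1 library at 0, and no difference was called. RNA of the ligand says nothing of TGF-β protein in the medium, which was not measured here.

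Both receptor genes were low, and neither was called in any comparison. Tgfbr2, the receptor that binds the ligand first, lies at chr9:116087695-116175363 on the minus strand. It stood at 1.62, 12.8 and 8.58 CPM in Cre-negative TfhA libraries 2, 4 and 5, at 13.4, 11.3 and 19.9 CPM in Tfh1 and at 14.6, 7.69 and 11.2 CPM in Tfh5. In Cre-positive libraries 1, 3 and 6 it stood at 4.94, 7.45 and 8.13 CPM in TfhA, at 16.7, 20.4 and 8.31 CPM in Tfh1 and at 25.4, 22.3 and 19.0 CPM in Tfh5. Under the Cre-positive label all Tfh1 and all Tfh5 libraries were above all TfhA libraries. The Tfh5 minus TfhA difference there was 1.69 ± 0.71 on the log2 scale (6.84 ± 1.68 to 22.2 ± 3.20 CPM, edgeR unadjusted p = 0.0223, adjusted p = 0.187). In Tfh5 every Cre-positive library was above every Cre-negative one (22.2 ± 3.20 against 11.2 ± 3.47 CPM), a difference of 0.99 ± 0.69 that was not called (edgeR adjusted p = 0.567).

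Tgfbr1, the kinase that TGFBR2 activates, varied too much within groups to be placed. The gene (chr4:47353222-47414926, plus strand) was at 7.55, 13.8 and 32.6 CPM in Cre-positive Tfh5 libraries 1, 3 and 6. It was at 21.2, 4.27 and 0.335 CPM in Cre-negative Tfh5 libraries 2, 4 and 5. In the 2 TfhA groups it ran from 0.817 to 3.09 CPM under the Cre-negative label and from 0 to 8.96 CPM under the Cre-positive label, where library 1 held 49 of the 50 counts. From Cre-positive TfhA to Tfh5 the difference was 2.59 ± 1.53 (edgeR adjusted p = 0.385). Limma-voom called it (adjusted p = 0.0249), and so did edgeR without that library 1 of TfhA (log2 difference 8.01, adjusted p = 0.0270).

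Smad2 and Smad3, which carry the signal from the receptor to the nucleus, were not called in any of the 13 comparisons. Smad3 (chr9:63646766-63757994, minus strand) had 28.9 ± 5.08, 36.0 ± 7.56 and 39.6 ± 3.92 CPM in the Cre-negative groups TfhA, Tfh1 and Tfh5 (n = 3 each). The Cre-positive groups had 30.8 ± 16.8, 54.0 ± 16.4 and 49.3 ± 23.2 CPM. Its range over single libraries was 15.6 to 72.6 CPM, and both ends came from Cre-positive libraries. In the Cre-negative libraries all 3 Tfh5 values (41.8, 41.9 and 35.1 CPM for libraries 2, 4 and 5) were above all 3 TfhA values (27.5, 34.5 and 24.6 CPM), by 0.45 ± 0.41 on the log2 scale (edgeR adjusted p = 0.684). Its smallest p was for Tfh1 minus TfhA under the Cre-positive label, at 0.81 ± 0.41 (edgeR unadjusted p = 0.0548, adjusted p = 0.366).

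Smad2 (chr18:76241090-76311748, plus strand) had group means of 15.7 to 24.8 CPM. Cre-negative TfhA libraries were close together, at 15.6, 16.5 and 18 CPM. Cre-negative Tfh1 libraries, in contrast, ran from 3.30 to 32 CPM and Cre-positive Tfh5 libraries from 12.3 to 45.4 CPM. With this spread its differences between groups stayed between -0.09 and 0.66 on the log2 scale, each with an SE of 0.69.

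Among the inhibitors, Smad7, which blocks the activated receptor and brings ubiquitin ligases to it, was not called. The gene is at chr18:75367365-75395935 on the plus strand. Its Cre-positive Tfh5 libraries 1, 3 and 6 had 16.5, 11.9 and 21.7 CPM, above all Cre-positive TfhA (5.30, 7.95 and 5.86 CPM) and Tfh1 libraries (0, 5.69 and 8.48 CPM). Those differences were 1.39 ± 1.10 and 1.82 ± 1.12 (edgeR adjusted p = 0.578 and 0.520). In the Cre-negative libraries TfhA had 3.55 ± 2.33 CPM, Tfh1 6.57 ± 2.75 CPM and Tfh5 8.62 ± 5.20 CPM. Those ranges overlapped.

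Ski, a co-repressor related to SnoN, lies at chr4:155154075-155222535 on the minus strand. In Tfh1 it was at 67.4, 62.2 and 82.3 CPM in Cre-positive libraries 1, 3 and 6 and at 29.2, 48.1 and 28.2 CPM in Cre-negative libraries 2, 4 and 5. The 2 labels did not overlap in Tfh1, and the difference was 1.0 ± 0.44 (edgeR unadjusted p = 0.0300, adjusted p = 0.428), so it was not called. Cre-positive Tfh1 was also above Cre-positive TfhA (14.0 to 59.1 CPM) in every library, by 0.93 ± 0.44 (edgeR adjusted p = 0.333). In TfhA and Tfh5 the labels overlapped, with single libraries at 14.0 to 80.5 CPM.

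Itgae, the integrin chain that TGF-β is known to raise in T cells, gave too few reads for a fold. The gene (chr11:73090505-73147449, plus strand) had 210.25 counts in all libraries together and 0 in 6, or in 7 once counts were rounded. It overlaps Haspin on the other strand, and the labels do not say whether counting used strand, so reads of the 2 genes may be mixed. Tfh5 was the only treatment with reads in all 6 libraries, at 3.24, 4.70 and 3.35 CPM in Cre-negative libraries 2, 4 and 5 and at 6.34, 1.43 and 2.58 CPM in Cre-positive libraries 1, 3 and 6. After rounding, TfhA had reads in 2 libraries, Cre-negative 4 (2.14 CPM) and Cre-positive 6 (0.359 CPM). Tfh1 had reads in 3 libraries, at 1.08 and 1.83 CPM in Cre-negative 5 and 4 and at 2.45 CPM in Cre-positive 6. Summed over each group of 3, the counts were 21, 20 and 78 in Cre-negative TfhA, Tfh1 and Tfh5 and 3, 15 and 73 in the Cre-positive groups. No Itgae difference was called.

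**Figure D2:**
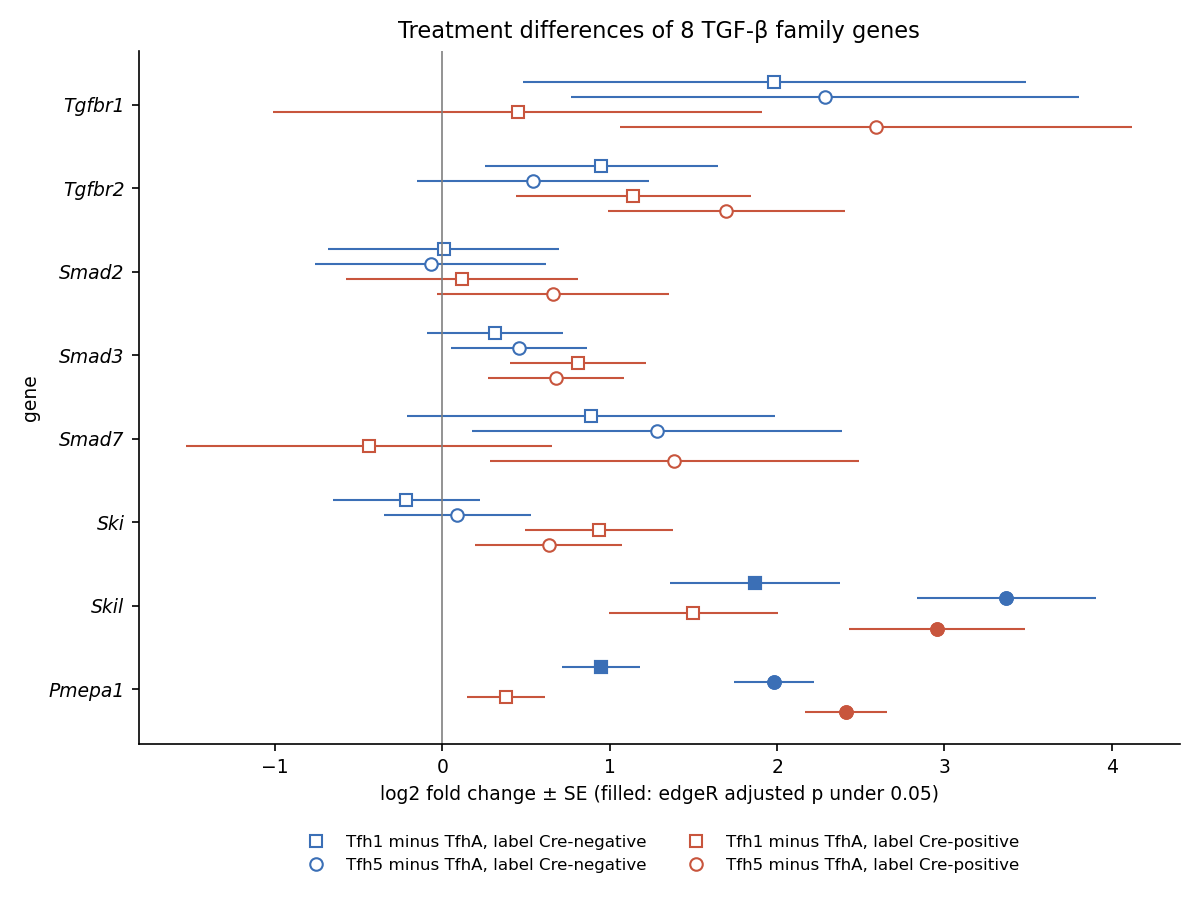
Log2 fold change ± SE against TfhA (horizontal axis) for 8 of the genes (vertical axis), squares for Tfh1 and circles for Tfh5, blue for the label Cre-negative and red for Cre-positive, filled where the edgeR adjusted p is under 0.05. Filled symbols appear for Skil and Pmepa1 only. Tgfb1 and Itgae, the genes with the most libraries at 0, are left out. Tgfbr1 is shown with library 6 of Cre-positive TfhA and Tfh1 at 0 after rounding. Smad7 is shown with Cre-positive Tfh1 library 1 at 0 after rounding.

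Counted over the family, 2 of 10 genes, Skil and Pmepa1, were called from TfhA to Tfh5 under each label, and both rose. The background in all 11738 genes was 5.09% called under the Cre-negative label (3.18% higher, 1.92% lower) and 5.41% under the Cre-positive label (2.41% higher, 3.00% lower). From TfhA to Tfh1 the same 2 were called under the Cre-negative label, where 2.23% of all genes were called (1.52% higher, 0.716% lower). For that step under the Cre-positive label edgeR called 0 members and 2.59% of all genes (1.58% higher, 1.01% lower), with 2 members at an unadjusted p under 0.05, and 0 by DESeq2 and by limma-voom. From Tfh1 to Tfh5, Pmepa1 was called under each label. The background was 0.554% of all genes under the Cre-negative label (0.273% higher, 0.281% lower) and 1.75% under the Cre-positive label (0.426% higher, 1.32% lower). With 10 genes and 1 or 2 calls, these counts describe the members and give no rate for the pathway.

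Estimates leaned upwards from TfhA to Tfh1 and Tfh5, and from Tfh1 to Tfh5. The median log2 difference of the 10 genes was 0.91 from TfhA to Tfh5 under the Cre-negative label and 1.54 under the Cre-positive label, against -0.09 and -0.05 over all genes. From TfhA to Tfh1 the medians were 0.92 and 0.63 (all genes -0.04 and -0.06), and from Tfh1 to Tfh5 they were 0.30 and 1.01 (all genes 0 and 0). Positive estimates numbered 9, 8 and 7 of 10 under the Cre-negative label (Tfh1 minus TfhA, Tfh5 minus TfhA, Tfh5 minus Tfh1) and 9, 9 and 7 under the Cre-positive label. Comparisons with the same TfhA libraries share their error. The medians and sign counts include Tgfb1 and Itgae, which had too few reads for a firm estimate. Many signs were also not firm. Over all comparisons, those between labels included, 84 of 130 estimates for the 10 genes were within 1 SE of 0. Of these 84, 53 changed sign in at least 1 alternative. The upward lean is therefore a description of the estimates and was not tested. Groups of 3 did not overlap for 1, 4 and 4 members (Tfh1 against TfhA, Tfh5 against TfhA, Tfh5 against Tfh1) under the Cre-negative label, where 22.7%, 24.7% and 16.0% of all genes did not overlap. With the Cre-positive label they did not overlap for 3, 5 and 3 members, against 18.8%, 21.4% and 15.4% of all genes.

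Between the genotype labels, Pmepa1 in Tfh1 was the only member called. It was lower with the Cre-positive label by 1.02 ± 0.23 on the log2 scale (73.1 ± 13 against 148 ± 35.6 CPM, n = 3 each, edgeR log2 difference -1.02, adjusted p = 0.0214). Over all genes 0.860% were called in Tfh1 (0.520% higher, 0.341% lower), and groups did not overlap for 2 members and 16.2% of all genes. DESeq2 and limma-voom each called 1 member too, Pmepa1. The call did not survive leaving out Cre-negative Tfh1 library 5 (adjusted p = 0.193) or 4 (0.0990), or Cre-positive Tfh1 library 6 (0.0701) or 1 (0.185), while the estimate stayed between -1.20 and -0.87. The 12 CD4 T cell markers differed between the same groups in the other direction, with summed levels of 4163 to 4537 CPM in Cre-positive and 2964 to 3373 CPM in Cre-negative Tfh1 libraries, and their part in the Pmepa1 difference was not tested. In TfhA the Pmepa1 difference was -0.44 ± 0.23 (edgeR adjusted p = 0.957), and in Tfh5 it was -0.02 ± 0.23 (adjusted p = 1).

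Whether that gap differed between treatments was tested as an interaction. The Pmepa1 label difference in Tfh5 minus that in Tfh1 was 1.0 ± 0.33, with an unadjusted p of 0.00428 by edgeR and an adjusted p of 0.384, so it was not called. Against TfhA, the Tfh1 label difference was -0.57 ± 0.33 (edgeR adjusted p = 0.795). In the 3 interactions edgeR called 0 of 10 members each, against 0.239%, 1.19% and 0.0596% of all genes (Tfh1 minus TfhA, 0.102% higher and 0.136% lower; Tfh5 minus TfhA, 0.332% higher and 0.860% lower; Tfh5 minus Tfh1, all lower). At an unadjusted p under 0.05 there were 0, 0 and 1 members, and DESeq2 and limma-voom called 0 in each. So the Pmepa1 gap in Tfh1 was not shown to differ from the gap in the other treatments.

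In TfhA and Tfh5 edgeR called 0 members between labels, against 0% and 3.20% of all genes (in Tfh5 1.19% higher and 2.01% lower). Groups did not overlap for 0 members in TfhA and 1 in Tfh5, against 13.1% and 16.7% of all genes. No member was at an unadjusted p under 0.05 in either treatment, and DESeq2 and limma-voom called 0. In TfhA edgeR called 0 of all genes, 609 had an unadjusted p under 0.05, DESeq2 called 18 and limma-voom 6. With the 3 treatments summed per replicate number (3 against 3), 0 of 10 members and 1.67% of 11703 genes were called (1.09% higher, 0.590% lower), with 0 members at an unadjusted p under 0.05 and 0 called by DESeq2 or limma-voom. The summed Pmepa1 level was still lower in every Cre-positive sum (143, 154 and 136 CPM for numbers 1, 3 and 6) than in every Cre-negative sum (167, 163 and 172 CPM for 2, 4 and 5), by 0.21 ± 0.13 on the log2 scale (log2 difference -0.21, edgeR adjusted p = 0.541). Such non-overlap occurred in 19.6% of all genes in the summed data.

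**Figure D3:**
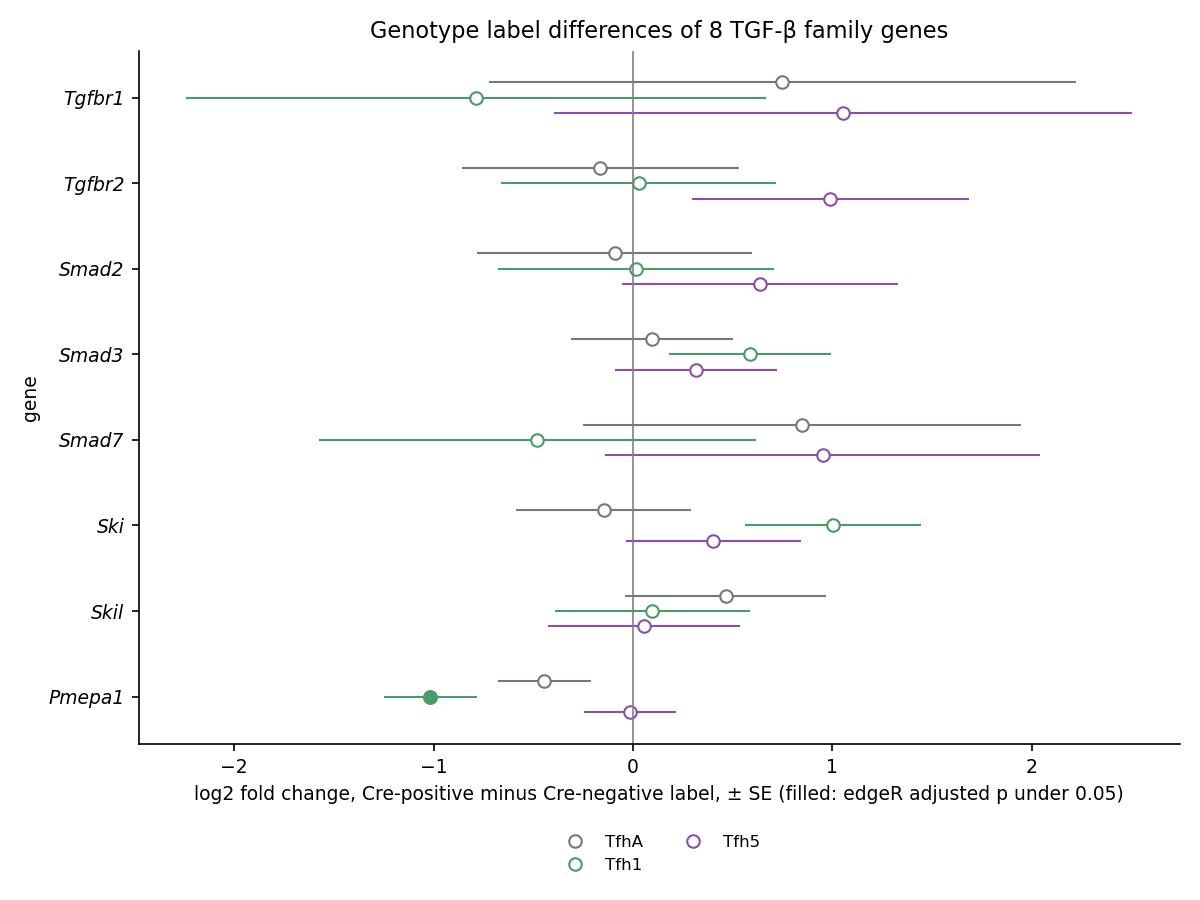
Log2 fold change ± SE of the label Cre-positive minus Cre-negative (horizontal axis) for 8 of the genes (vertical axis) in TfhA (grey), Tfh1 (green) and Tfh5 (purple), filled where the edgeR adjusted p is under 0.05. The single filled symbol is Pmepa1 in Tfh1 at -1.02, and its Tfh5 value is -0.02.

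The rest of the pathway was read from 8 lists of 162 other genes, of which 128 passed the filter on low counts. In the counts that follow, rose and fell mean called higher and called lower by edgeR. From TfhA to Tfh5, 11 of 128 rose and 4 fell under the Cre-negative label, where 3.18% of all genes rose and 1.92% fell. With the Cre-positive label 11 rose and 11 fell, against 2.41% and 3.00% of all genes. From TfhA to Tfh1, 8 rose and 1 fell under the Cre-negative label (all genes 1.52% and 0.716%), and 6 rose and 5 fell under the Cre-positive label (all genes 1.58% and 1.01%). From Tfh1 to Tfh5, 1 rose and 2 fell under the Cre-negative label (all genes 0.273% and 0.281%), and 2 rose and 4 fell under the Cre-positive label (all genes 0.426% and 1.32%). The median log2 differences of the 128 genes ran from 0.01 to 0.14 in these 6 comparisons, and those of all genes from -0.09 to 0. Most of the called genes were on the list of response genes, 40 tested, with 9 rising and 3 falling from TfhA to Tfh5 under the Cre-negative label and 7 and 10 under the Cre-positive label. The median of those 40 was -0.08 and 0.05 in these comparisons, against -0.09 and -0.05 over all genes.

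Upstream of the receptor, Furin, the protease that cuts the TGF-β precursor, was the only one of 14 tested ligand and ligand activation genes to be called higher. It went from 28.6 ± 6.59 CPM in TfhA to 168 ± 19.1 in Tfh1 and 267 ± 44.6 in Tfh5 under the Cre-negative label (2.55 ± 0.30 and 3.22 ± 0.31, edgeR adjusted p = 4.75e-07 and 3.58e-09). In the Cre-positive libraries it went from 44.0 ± 18.7 to 139 ± 24.9 and 241 ± 101 CPM (1.67 ± 0.29 and 2.46 ± 0.30, adjusted p = 0.000421 and 2.70e-07). All 4 calls held in the 13 alternatives. In those 4 comparisons 1.52% to 3.18% of all genes were called higher. On the same list Itgb3, a partner chain of integrins that release TGF-β, fell from TfhA to Tfh5 under the Cre-positive label. It went from 302 counts to 1 count, a ratio of 280.4 with a 95% counting interval of 49.95 to 11110. That interval is for counting error only and leaves out the spread between libraries. Cre-positive TfhA libraries 1, 3 and 6 were at 27.2, 4.83 and 12.6 CPM. The edgeR call was lost without TfhA library 1 (adjusted p = 0.0805), Tfh5 library 3 (0.0700) or Tfh5 library 6 (0.0716). Under the Cre-negative label Itgb3 was lower in Tfh5 too, at 0 to 1.42 CPM against 4.80 to 8.22 CPM in TfhA, without a call.

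Among 11 tested receptors and co-receptors, the only gene called was Acvrl1, with 0% to 5.41% of all genes called per comparison. Acvrl1 is a type I receptor of the family. Its level rose under the Cre-negative label from 6.36 ± 1.69 CPM in TfhA to 43.2 ± 9.73 in Tfh1 and 50.9 ± 11 in Tfh5 (2.75 ± 0.49 and 2.99 ± 0.49, edgeR adjusted p = 0.000549 and 7.58e-05). With the Cre-positive label it rose from TfhA to Tfh1 (13.5 ± 8.53 to 50.3 ± 7.0 CPM, 1.91 ± 0.47, adjusted p = 0.0160), a call lost without TfhA library 6 (0.0899), TfhA library 3 (0.142) or Tfh1 library 6 (0.0648). In Cre-positive Tfh5 libraries 1, 3 and 6 it was at 19.5, 24.7 and 8.01 CPM. The label difference in Tfh5 was below that in TfhA by 2.62 ± 0.66 on the log2 scale (log2 value -2.62, edgeR adjusted p = 0.0335). That call was lost with limma-voom (0.230), in the fit on the compared groups (0.132), and without Cre-negative TfhA library 2 (0.103), 5 (0.0720) or 4 (0.0539), Cre-negative Tfh5 library 2 (0.0750), Cre-positive TfhA library 1 (0.205) or Cre-positive Tfh5 library 6 (0.103).

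Among 14 tested SMADs and SMAD partners, both calls from TfhA to Tfh5 were under the Cre-positive label and were co-repressors. Of all genes 2.41% were called higher in that comparison. Tgif1 rose from 5.76 ± 3.63 to 56.6 ± 15.8 CPM (3.28 ± 0.62, edgeR adjusted p = 0.000497). Ncor1 rose from 261 ± 35.5 to 555 ± 49.1 CPM (1.09 ± 0.19, edgeR adjusted p = 0.000135). Both held in all 13 alternatives. Under the Cre-negative label Ncor1 was also higher in Tfh5, at 387 to 456 CPM against 288 to 324 CPM in TfhA, without a call. Tgif1 overlapped there, at 6.60 to 21.8 CPM in Tfh5 and 9.88 to 12.1 CPM in TfhA. In the feedback list, 12 genes tested, Ldlrad4, a membrane protein related to PMEPA1, was at 91.8, 92.4 and 107 CPM in Cre-positive Tfh5 libraries 1, 3 and 6 and at 0.548, 0 and 4.43 CPM in TfhA. Its call (5.84 ± 1.45, edgeR adjusted p = 0.0316) was lost when TfhA library 1 (0.122) or 3 (0.0893) or Tfh5 library 1 (0.0670), 3 (0.0623) or 6 (0.0688) was left out. In Cre-negative Tfh5 Ldlrad4 was at 41.2, 63.1 and 74.1 CPM in libraries 2, 4 and 5, against 0 to 6.06 CPM in TfhA. None of the 15 genes of the non-SMAD branch was called in any comparison, where 0% to 5.41% of all genes were called. With 15 genes this gives no rate for that branch.

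Response genes moved in both directions. Il17a, the Th17 cytokine, rose from 6.19 ± 1.30 CPM in TfhA to 111 ± 36.3 in Tfh1 and 165 ± 38.6 in Tfh5 under the Cre-negative label (edgeR adjusted p = 1.23e-10 and 2.96e-12). With the Cre-positive label it rose from 7.64 ± 2.19 to 113 ± 31.6 and 147 ± 15.9 CPM (adjusted p = 2.19e-10 and 1.21e-11). Ctla4, an inhibitory receptor, rose from TfhA to Tfh1 under both labels, by 2.01 ± 0.27 and 1.91 ± 0.27 (edgeR adjusted p = 4.75e-06 and 1.35e-05). Timp1, a protease inhibitor, rose from TfhA to Tfh1 and Tfh5 under the Cre-negative label, from 141 ± 12.6 to 354 ± 22.9 and 653 ± 68.4 CPM (edgeR adjusted p = 0.000155 and 7.46e-09). Id3, an inhibitor of E proteins that TGF-β can repress, fell from TfhA to Tfh5 under the Cre-negative label, from 88.5 ± 22.8 to 2.76 ± 1.25 CPM (log2 difference -4.99 ± 0.49, edgeR adjusted p = 5.44e-09). Under the Cre-positive label it fell from 60.1 ± 16.1 to 16.3 ± 8.79 CPM (log2 difference -1.88 ± 0.42, edgeR adjusted p = 0.00343). Tbx21, the Th1 regulator, fell from 45.1 ± 16.5 to 0.264 ± 0.457 CPM from TfhA to Tfh1 under the Cre-positive label (edgeR adjusted p = 0.00109). Its Tfh5 level under that label was 1.99 ± 2.01 CPM, also called lower than TfhA (edgeR adjusted p = 0.00791). Under the Cre-negative label Tbx21 was lower in Tfh1 too, at 2.89 to 11.1 CPM against 52.5 to 70.2 CPM in TfhA, without a call.

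Further response genes moved under the Cre-positive label. Runx3, a regulator of cytotoxic and Th1 genes, and Cdkn1a, a cell cycle inhibitor that TGF-β induces in many cells, fell from TfhA to Tfh5 (192 ± 30.3 to 63.7 ± 19.3 CPM and 224 ± 28.5 to 53.0 ± 13.5 CPM, edgeR adjusted p = 1.88e-05 and 1.39e-07). Ccr6, a Th17 chemokine receptor, rose from Tfh1 to Tfh5 (32.1 ± 1.43 to 113 ± 19.7 CPM, edgeR adjusted p = 0.00654), and Junb fell (413 ± 42.8 to 204 ± 48.6 CPM, adjusted p = 0.00262). Under the Cre-negative label Cdkn1a was lower in Tfh5 too, at 84.8 to 129 CPM against 162 to 189 CPM in TfhA, without a call. The ranges of Runx3, Ccr6 and Junb overlapped there in the same steps. Against Tfh1, Cdkn1a was called lower in Cre-negative Tfh5 (log2 difference -1.08 ± 0.24, edgeR adjusted p = 0.0207), a call lost in 5 of 13 alternatives. Ccr6 was called higher in Tfh5 than in TfhA under the Cre-negative label (68.9 ± 45.8 against 20.9 ± 6.28 CPM, edgeR adjusted p = 0.00391). The same step was called under the Cre-positive label (113 ± 19.7 against 37.9 ± 16.8 CPM, adjusted p = 0.00792).

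Between labels, edgeR called 0 of the 128 other pathway genes in TfhA, 4 in Tfh1 (1 higher and 3 lower with the Cre-positive label) and 10 in Tfh5 (2 higher and 8 lower). Over all genes the shares called were 0%, 0.860% (0.520% higher, 0.341% lower) and 3.20% (1.19% higher, 2.01% lower). Over the alternatives, added for these genes after the data were seen, the 4 became 1 to 9 and the 10 became 2 to 16. In TfhA the count was 0 in all 12 alternatives, DESeq2 and limma-voom included. Timp1 was lower with the Cre-positive label in Tfh1 (169 ± 44.7 against 354 ± 22.9 CPM, edgeR adjusted p = 0.00502, lost without Cre-positive Tfh1 library 6 at 0.0783) and in Tfh5 (222 ± 68.5 against 653 ± 68.4 CPM, adjusted p = 1.36e-05). Cdkn1a was lower in Tfh1 (91.6 ± 16.4 against 236 ± 43.4 CPM, edgeR adjusted p = 0.000990) and in Tfh5 (53.0 ± 13.5 against 112 ± 23.6 CPM, adjusted p = 0.00580). Id2 was lower in Tfh5 (416 ± 67.2 against 937 ± 92.4 CPM, edgeR adjusted p = 0.000202). Id3 went the other way in Tfh5 (16.3 ± 8.79 against 2.76 ± 1.25 CPM, edgeR adjusted p = 0.000502). That Id3 call was lost with limma-voom (0.260) and in the fit on the compared groups (0.270). Unlike Pmepa1, Timp1 and Cdkn1a had called interactions, with label differences in Tfh1 below those in TfhA by 1.57 ± 0.30 and 1.72 ± 0.33 on the log2 scale (log2 values -1.57 and -1.72, edgeR adjusted p = 0.00639 and 0.00712). The Cdkn1a interaction was lost without Cre-negative Tfh1 library 5 (adjusted p = 0.0533). For Id2, Timp1 and Cdkn1a the label difference in Tfh5 was also below that in TfhA (log2 values -1.42 ± 0.27, -2.06 ± 0.30 and -1.43 ± 0.33, edgeR adjusted p = 0.00262, 5.92e-05 and 0.0188). For Id3 it was above that in TfhA (log2 value 3.11 ± 0.60, edgeR adjusted p = 0.00327), a call lost with limma-voom (0.238).

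Atf3 had 353 counts in Cre-negative Tfh1 and 0 in Cre-positive Tfh1. Taking 3 counts over the group as the floor puts Atf3 at least 120.4-fold lower there, by counting error only, without the spread between libraries. Its call (edgeR adjusted p = 0.0262) was lost without Cre-negative Tfh1 library 5 (0.102) or 4 (0.0819), or Cre-positive Tfh1 library 3 (0.0853), 6 (0.0992) or 1 (0.119). Itgb7, which encodes the β chain that pairs with CD103, was higher with the Cre-positive label in Tfh1 (185 ± 12.9 against 79.1 ± 10.4 CPM, adjusted p = 0.0241), a call lost without any single one of the 6 Tfh1 libraries (0.0524 to 0.140). In the sums over treatments Itgb7 was higher too (142 ± 27.3 against 72.6 ± 2.20 CPM, 0.97 ± 0.16, edgeR adjusted p = 0.00431), and that call held in all 11 alternatives. So the partner chain of CD103 was called in the sums while Itgae itself stayed near its detection floor.

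**Figure D4:**
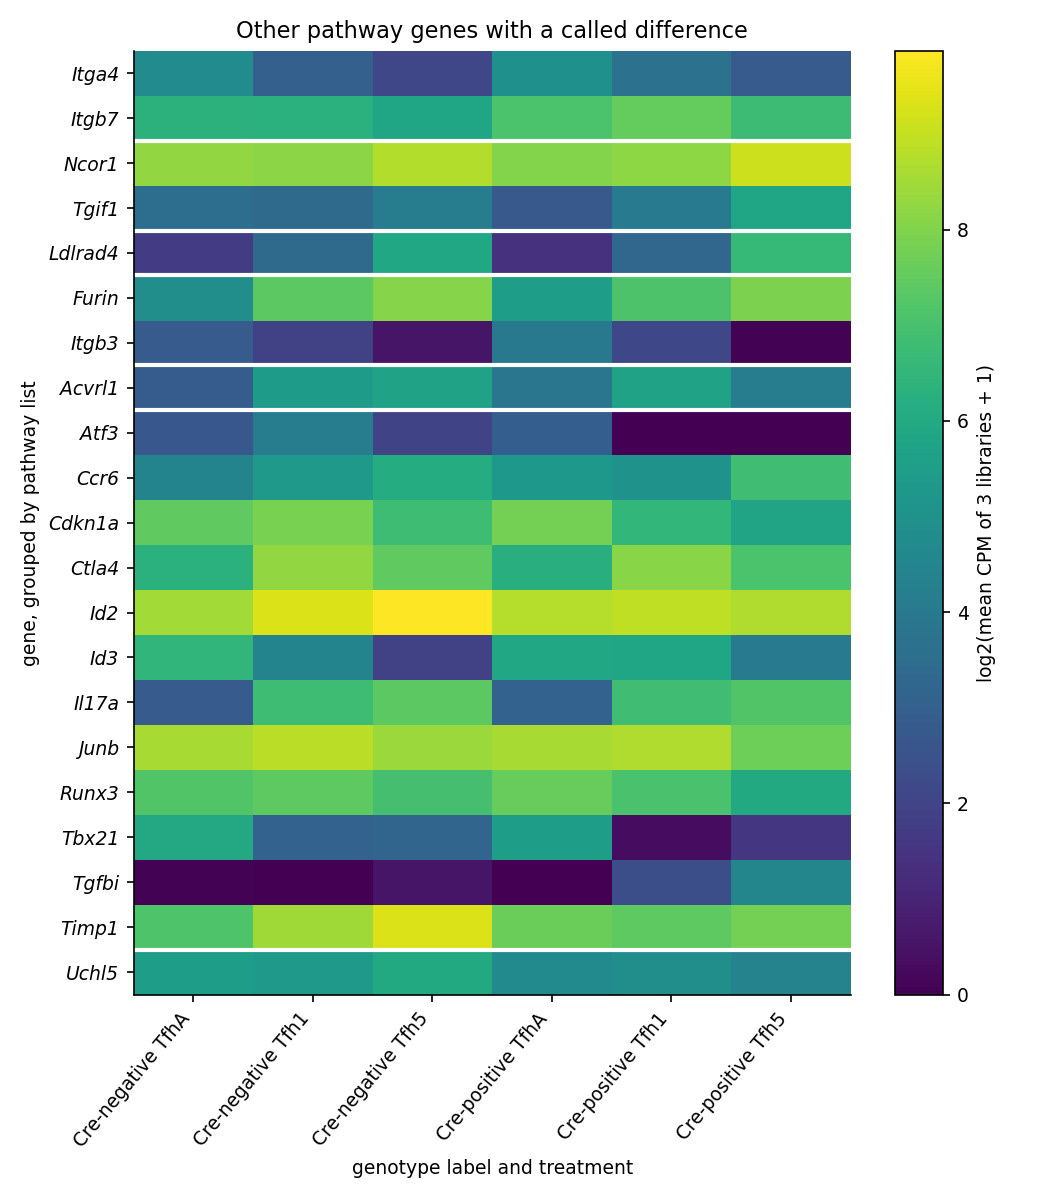
Heat map of log2(mean CPM of 3 libraries + 1) (colour, dark blue low and yellow high) for 21 other pathway genes chosen by the rule for named genes (rows, white lines between lists) in the 6 groups (columns). Furin and Il17a brighten from TfhA to Tfh5 under both labels, Id3 darkens, and Atf3 is at 0 in both Cre-positive Tfh1 and Tfh5.

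Pmepa1 and Skil varied together over the 18 libraries (Pearson r = 0.80 on log2 CPM), and Itgae varied with both (0.77 with Pmepa1, 0.71 with Skil). Skil and Tgfbr2 had r = 0.71. These are descriptions over libraries that share treatments, and the treatment steps above enter them. Among tested genes with a mean of at least 10 CPM, those most like Pmepa1 were Agap1 (0.93), Rnf149 (0.90) and Cotl1 (0.88), and the most opposite was Cst7 (-0.92). For Skil they were Timp2 (0.90), Tmem176b (0.88) and Immp1l (0.88), with Ms4a6b most opposite (-0.85). Among the genes most like Tgfbr2 were Adam19 (0.84) and Spin1 (0.82), with Mcm5 most opposite (-0.83). Immp1l was also among the 3 genes most like Itgae (0.79). For the other members the highest r was 0.76 for Tgfb1 (Calm2), 0.81 for Tgfbr1 (Pcmtd1), 0.85 for Smad2 (Prune1), 0.81 for Smad3 (Ripk3), 0.79 for Ski (Cluap1) and 0.86 for Smad7, with an unnamed identifier.

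The libraries held 6424874 to 9236153 counts, and 19.7% to 46.2% of them fell on 2 identifiers without a name. In the Cre-negative libraries that share was 19.7% to 33.7% in TfhA and 36.8% to 43.0% in Tfh5, so there it moved with Pmepa1 and Skil. In the Cre-positive libraries it overlapped between the 2 treatments, at 27.4% to 46.2% in TfhA and 37.2% to 41.6% in Tfh5. The TfhA to Tfh5 calls of both genes were made as well with those identifiers left out. What the share reflects, and its part in the Pmepa1 and Skil results, was not tested. All 12 CD4 T cell markers were above 0 in every group. Their summed level differed between TfhA and Tfh5 without overlap. Under the Cre-negative label it was 2279 to 2310 CPM in TfhA and 2959 to 3589 CPM in Tfh5. With the Cre-positive label it was 2487 to 2998 CPM and 3604 to 4456 CPM. The part of this in the Pmepa1 and Skil results was not tested. Of the 2 CD8 T cell markers, Cd8a was above 0 in 1 library and Cd8b1 in 16 of 18, at up to 6.75 CPM, and the list summed to at most 7.83 CPM. The natural killer list (6 genes) summed to at most 20.9 CPM, with Ncr1 and Klra8 at 0 throughout. Its gene Klrk1 was above 0 in 12 libraries, at up to 18.2 CPM. Under the Cre-positive label the list summed to 6.94 to 14.1 CPM in TfhA and to 0 to 6.49 CPM in Tfh5. Under the Cre-negative label those ranges overlapped, and the part of this list in the Pmepa1 and Skil results was not tested. The B cell list (7 genes) summed to at most 11.4 CPM, with Pax5 at 0 throughout and Ighm above 0 in 13 libraries, at up to 8.76 CPM. The myeloid and dendritic list (9 genes) summed to 9.58 to 18.8 CPM in Cre-negative Tfh5 and to 0 to 2.96 CPM in Cre-negative TfhA. Of its genes, Lyz2, Adgre1, Flt3 and Fcgr3 were at 0 throughout, and Xcr1 was above 0 in 8 libraries, at up to 8.39 CPM. The list summed to 0 to 9.35 CPM in Cre-positive Tfh5 and 0 to 0.183 CPM in Cre-positive TfhA. Its part in the Pmepa1 and Skil results was not tested. The erythroid and platelet list (6 genes) reached 0.151 CPM.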

How the data were processed

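Bulk 3′ RNA-seq of 18 libraries was deposited, in files of expected counts per gene by Entrez identifier. Per the submitters' processing notes, the tools were STAR 2.7.2b and featureCounts 1.6.4 and the build mm10. The expected counts deposited by the authors are not normalized. Of the values per library 11.7% to 18.1% are not whole, so some reads were counted in parts, and reads shared with near copies of a gene are uncertain. The design assumed whole counts, so values were rounded first. Genes were named through RefSeq's table for GRCm38.p6. Groups follow the genotype and treatment labels.

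In R 4.3.3, edgeR 4.0.16 was run on all 18 libraries with filterByExpr, TMM factors (0.829 to 1.39), 1 mean per group and a robust quasi-likelihood fit of 11738 genes (common biological coefficient of variation 0.812). It gave 13 comparisons: 3 between labels, 6 between treatments, 3 interactions and 1 on counts summed per replicate number. CPM are rounded counts over library size times TMM factor. The SE is the log2 fold change over the square root of F. Alternatives used DESeq2 1.42.0, limma 3.58.1 (voom), relative log expression factors, no filter, no 2 most abundant identifiers, only the groups compared, a replicate block, and single libraries left out. The edgeR test was tested on simulated data for 1 of the comparisons, that between labels in Tfh5.

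The members, the pathway and marker lists and the tests were chosen with earlier results of these data known. Named were all 10 members, Maf, and from each pathway list up to 4 called genes per comparison by adjusted p, with the 3 most alike genes and the 1 most opposite for each member. The same alternatives were added for the other pathway genes after the data were seen. Some genes that this rule names are not reported here.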

Additional observations from a re-analysis of the deposited data

How the results depend on the processing

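The number of the 10 genes called stayed within 1.5 times for 9 of 13 comparisons in every alternative run. From TfhA to Tfh1 under the Cre-negative label it was 1 in place of 2 with limma-voom and 1 in the fit on the compared groups alone, and 0 to 1 with single libraries left out. From Tfh1 to Tfh5 it was 0 in place of 1 under the Cre-negative label in the fit on the compared groups, 0 to 1 with single libraries left out, and 2 in place of 1 under the Cre-positive label with limma-voom. Between labels in Tfh1 it was 0 to 1 with single libraries left out. For Itgae from TfhA to Tfh1 under the Cre-positive label, the log2 estimate was -3.07 without Cre-positive Tfh1 library 6 and 5.62 without Cre-positive TfhA library 6, and the cause was not tested. Of 130 estimates for the 10 genes, 84 were within 1 SE of 0, and 53 of these changed sign in at least 1 alternative.

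Deviations of same-numbered libraries from their group means, over all tested genes, were hardly correlated: 0 of 18 pairs were over 0.1 (-0.037 to 0.0659). Pairs with different numbers ran from -0.0626 to 0.0475. Noise of low-count genes enters each value, so this cannot say whether a number is an animal. With a replicate block 1 member in place of 2 was called from TfhA to Tfh1 under the Cre-negative label, where Skil had an adjusted p of 0.0646. Under the block the Acvrl1 interaction (Tfh5 minus TfhA) was lost as well, with an adjusted p of 0.0707.

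The counts over all genes moved with the settings, with the lowest and highest as follows. Between labels they were 0 to 23 in TfhA (0 reported), 51 to 265 in Tfh1 (101) and 80 to 595 in Tfh5 (376). For Tfh1 minus TfhA, Tfh5 minus TfhA and Tfh5 minus Tfh1 they were 129 to 568 (262), 358 to 891 (598) and 23 to 229 (65) under the Cre-negative label, and 162 to 590 (304), 448 to 1029 (635) and 116 to 400 (205) under the Cre-positive label. The interactions ran over 18 to 65 (28), 81 to 253 (140) and 3 to 55 (7), and the sums over treatments over 94 to 549 (196). Of 55 calls of other pathway genes that the rule named, 35 held in every alternative, 20 were lost in at least 1, and 0 changed sign. Depth limits Tgfb1 and Itgae most, each with libraries at 0. Where a library was left out, a group had 2 samples and shared the estimate of spread with the others.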
